A study of Mus musculus with 6 samples.

Results

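Transcripts of the pancreatic islet were examined in acinar cell preparations of control and Trip12 knockout mice, through 10 genes chosen by name: the hormone genes Ins1, Ins2, Gcg, Sst, Ppy and Iapp, the granin genes Chga and Chgb, and the prohormone convertase genes Pcsk1 and Pcsk2. The members were listed by gene name, with no threshold on a measured value. All 10 were found by Ensembl identifier among the 55414 genes of the count tables, and all 10 were among the 13115 genes that passed the filter on low counts. The study compared 3 libraries from Pdx1Cre;Trip12+/+ mice (control) with 3 from mice labelled as Trip12 knockout, of genotype Pdx1Cre;Trip12fl/fl. All 6 came from adult animals with no treatment, all carry the Pdx1-driven Cre recombinase, and each was labelled as pancreatic acinar cells and as a biological replicate numbered 1 to 3. TRIP12 is an E3 ubiquitin ligase, and Pdx1 is active in the progenitors that give rise to acinar, duct and islet cells and in adult beta cells, so that a Pdx1-driven Cre is not limited to acinar cells.

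The endocrine pancreas lies in islets scattered through the acinar tissue. Beta cells make insulin and islet amyloid polypeptide, alpha cells glucagon, delta cells somatostatin and PP cells pancreatic polypeptide. The hormones are made as longer precursors, packed with granins into dense-core granules, and cut at pairs of basic residues by the convertases PC1/3 and PC2, the products of Pcsk1 and Pcsk2. Acinar cells secrete digestive enzymes and are not known for making these hormones. In bulk libraries, fewer islet cells and less RNA per islet cell cannot be told apart.

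Promoter sequences were matched for 9 of the 10 members in a RefSeq table of build GRCm38.p6. They are shown because 3 members from different hormone and processing roles carry the same cAMP response element, TGACGTCA, in the 250 bases before the annotated start. This palindrome, the site bound by CREB, was present in 1.55% of 32851 promoters of that length. In the 30-base windows below, written 5′ to 3′ on the strand of the gene, capitals mark the element, which begins 72, 78 and 48 bases before the RefSeq start in Chgb, Pcsk1 and Sst. These positions depend on the annotation, since GENCODE M21 places the start 364, 31 and 114 bases further upstream, so that in Chgb and Sst the element lies after it.
Chgb (GRCm38.p6, chr2:132781559-132781588, plus strand): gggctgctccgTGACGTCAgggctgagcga
Pcsk1 (GRCm38.p6, chr13:75089768-75089797, plus strand): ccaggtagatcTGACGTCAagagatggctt
Sst (GRCm38.p6, chr16:23890874-23890903, minus strand): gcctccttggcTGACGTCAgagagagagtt

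The promoters of 3 hormone genes of different islet cell types follow. Capitals in Ins1 mark the E box letters GCCATCTG, which begin 86 bases before the start and were present on either strand in 1.11% of all promoters. Capitals in Gcg and Ppy mark the TATA box letters TATAAA, or TTTATA on the other strand, present in 12.4% of all promoters. The A box letters CTAATG, searched on both strands, were present in 6.36% of promoters and among the members in that of Sst. A match describes the letters and not the binding of a factor.
Ins1 (GRCm38.p6, chr19:52264047-52264296, plus strand): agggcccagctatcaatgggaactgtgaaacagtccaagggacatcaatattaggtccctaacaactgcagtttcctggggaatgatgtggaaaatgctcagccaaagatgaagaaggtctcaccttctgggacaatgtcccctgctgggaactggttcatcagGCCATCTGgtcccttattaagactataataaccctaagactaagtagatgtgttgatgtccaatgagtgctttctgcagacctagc
Gcg (GRCm38.p6, chr2:62483654-62483903, minus strand): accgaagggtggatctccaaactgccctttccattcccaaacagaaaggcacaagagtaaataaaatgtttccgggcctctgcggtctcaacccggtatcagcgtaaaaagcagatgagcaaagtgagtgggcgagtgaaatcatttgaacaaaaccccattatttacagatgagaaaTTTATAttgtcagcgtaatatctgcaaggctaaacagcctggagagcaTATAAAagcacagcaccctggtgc
Ppy (GRCm38.p6, chr11:102101320-102101569, minus strand): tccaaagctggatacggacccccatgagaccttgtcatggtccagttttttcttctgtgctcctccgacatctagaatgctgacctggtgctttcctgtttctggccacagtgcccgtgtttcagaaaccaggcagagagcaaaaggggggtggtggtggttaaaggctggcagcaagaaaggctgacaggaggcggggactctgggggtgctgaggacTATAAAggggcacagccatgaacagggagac

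The libraries held 31019500 to 34041901 gene counts. Trip12, the targeted gene, had 29.0, 22.3 and 26.4 CPM (counts scaled to a library of 1000000, with TMM factors) in control replicates 1 to 3 and 14.4, 14.7 and 13.0 in the knockouts, with no overlap, replicates 1 to 3 being listed in that order here and below. Its log2 fold change was -0.89 (SE 0.14), adjusted p = 0.0256 by the quasi-likelihood F test of edgeR, adjusted after Benjamini and Hochberg across the 13115 genes, which is used throughout. Leaving out 1 library at a time, Trip12 was called without control 1 and not in the other 5 fits (adjusted p 0.0676 to 0.14). The 12 acinar markers summed to between 403000 and 651000 CPM and were lower in all 3 knockouts (403000 to 412000) than in the controls (480000 to 651000). Summed leukocyte markers lay at 21.8 to 115 CPM in control and 19.7 to 79.4 in knockout, and stromal and endothelial markers at 34.7 to 159 and 46.6 to 178, highest in both libraries numbered 1. Ductal markers summed to 218 to 252 CPM in control and 206 to 305 in knockout, and neural markers to 20.3 to 28.5 and 25.5 to 29.5. Dbh was at 0 in every library, and so were the adipocyte genes Adipoq, Lep and Retn. The female transcript Xist was detected at 2118 and 2440 counts in controls 2 and 3 and at no more than 5 counts in the other 4 libraries. The Y-linked gene Ddx3y had 546, 0 and 2 counts in the controls and 758, 842 and 756 in the knockouts. In every fit without control 1, here and below, sex and genotype therefore cannot be told apart. With sex as a covariate, edgeR called no member, as without it, Iapp turned to a log2 fold change of -0.13, and 1 endocrine list gene was called (Ttr, adjusted p = 0.0374) where 3 were called without it, with Nkx2-2 at 0.286 and Pcsk6 at 0.302. The part of the other differences in the islet results was not tested.

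Islet transcripts were a small and variable fraction of every library. The 10 members together gave 474, 361 and 290 of every 1000000 gene counts, without TMM factors, in control replicates 1 to 3, with exact Clopper-Pearson 95% intervals of 466 to 482, 354 to 367 and 284 to 296. They gave 1090, 739 and 285 of every 1000000 in knockout replicates 1 to 3, with intervals of 1080 to 1100, 730 to 749 and 280 to 291. Knockouts 1 and 2 lay above every control, and knockout 3 lay just below the lowest. The groups averaged 375 ± 92.8 per 1000000 in control and 705 ± 404 in knockout (SD, n = 3). With TMM factors the sums were 467, 460 and 359 CPM in control and 916, 661 and 246 in knockout. On that scale knockout 3 lay further below the lowest control. The intervals cover counting error only, and the spread between libraries was far wider.

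**Figure D1:**
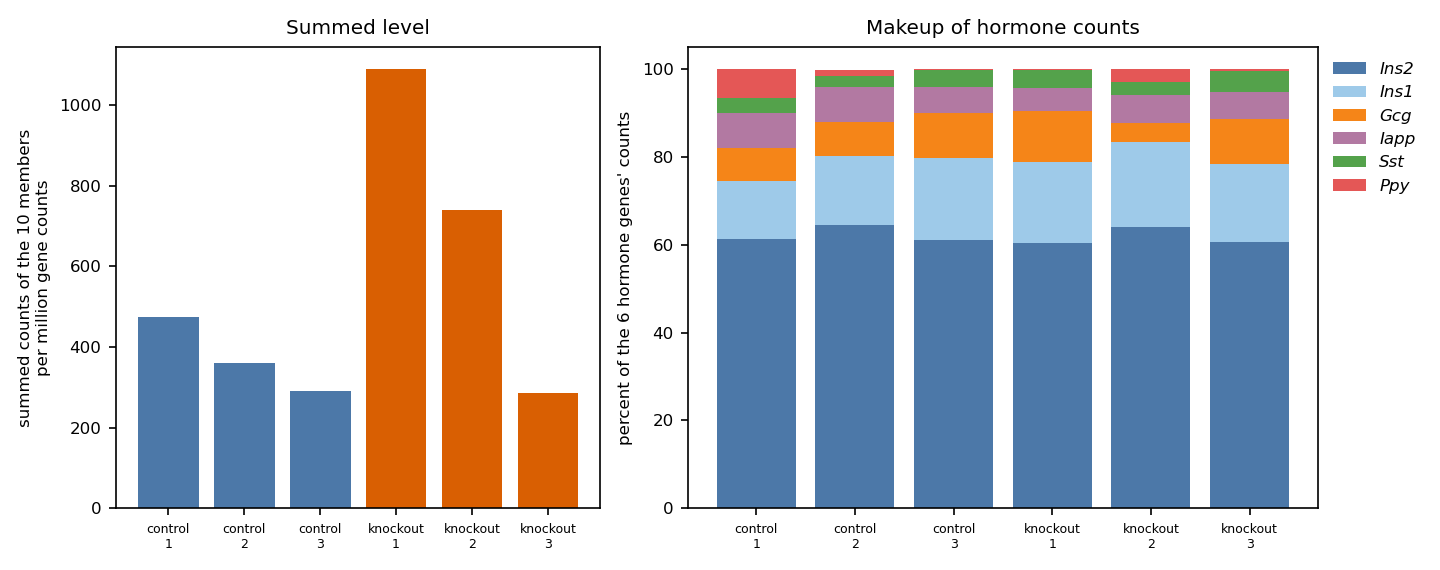
Left, summed counts of the 10 members per 1000000 gene counts in each of the 6 libraries. Right, the share of the 6 hormone genes' counts in percent taken by each hormone. The sum ran from 285 to 1090 per 1000000, while Ins1 and Ins2 together stayed between 74.5% and 83.5% of the hormone counts.

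Compared per kilobase of exon, the insulin genes stood above the other members. In control, Ins2 had 190 ± 31.0 CPM per kb and Ins1 58.8 ± 4.91 (SD, n = 3). Iapp followed at 30.6 ± 8.87, Ppy at 24.4 ± 29.6, Gcg at 22.3 ± 0.352 and Sst at 17.4 ± 2.44 CPM per kb, and the SDs of Iapp and Ppy took in Gcg. Chga was at 6.18 ± 1.02 CPM per kb. Pcsk1 (1.01 ± 0.209), Chgb (0.889 ± 0.136) and Pcsk2 (0.436 ± 0.0987) were the lowest, and Pcsk1 and Chgb did not differ beyond their spread. These lengths take in the exons of all transcripts, and part of the order depends on them. By the length of the principal transcript alone, Pcsk2 was at 0.731 ± 0.165, within the spread of Chgb. Gcg was then at 30.6 ± 0.484, above the mean of Ppy.

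Knockout against control, no member was called at an adjusted p under 0.05, where 0.945% of all tested genes were. At an unadjusted p under 0.05 stood 3 members, Chga, Pcsk2 and Pcsk1, against 16.7% of all tested genes (8.45% in the higher direction, where Chga and Pcsk2 lay). DESeq2 called 1 member, Chga (adjusted p = 0.0233), where it called 4.54% of all genes, and limma-voom called 0, where it called 0.854%. With the replicate number as a block edgeR called 1, Pcsk2, against 5.99% of all tested genes. Fitted differences were positive for 8 members and negative for Ppy and Pcsk1, with a median log2 fold change of 0.57 against 0.02 for all tested genes. That median rested on single libraries, at 0.12 without knockout 1 and 0.94 without knockout 3. In CPM the 2 groups overlapped for all 10 members, whereas 22.9% of all tested genes did not overlap.

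**Figure D2:**
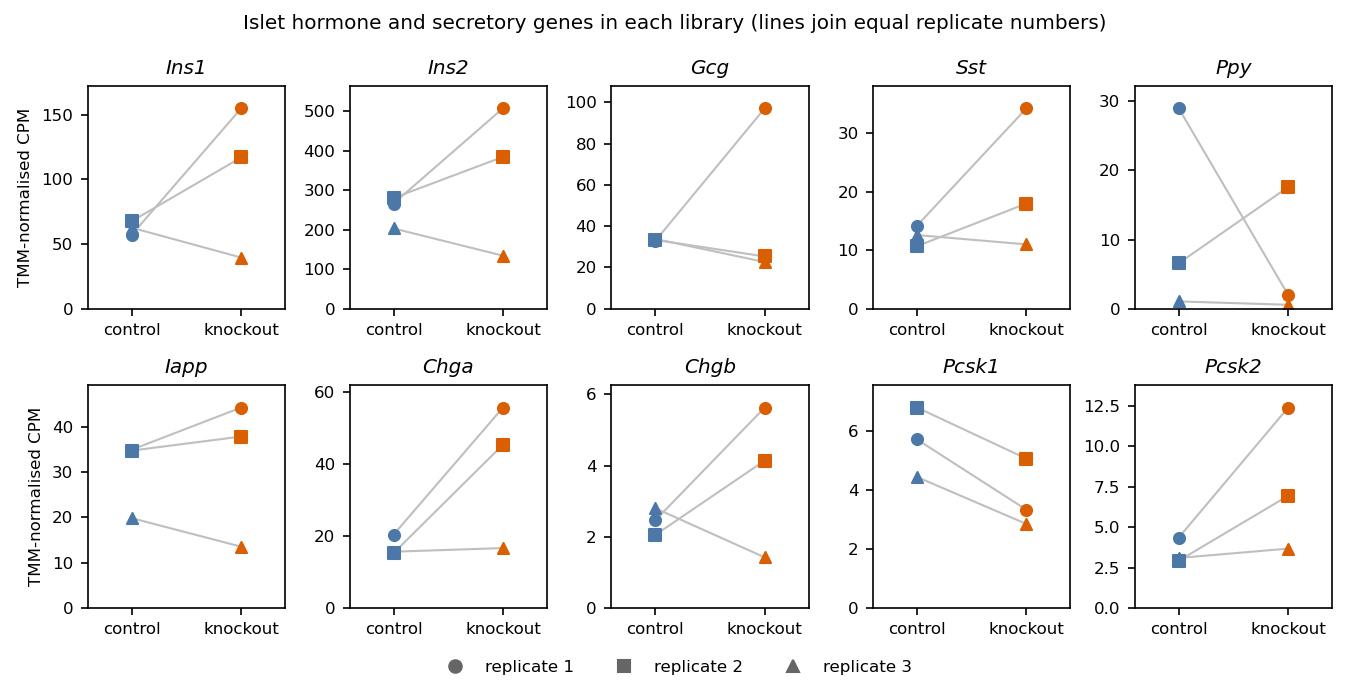
CPM of each member in each library, control left and knockout right, with lines joining libraries of equal replicate number. Knockout 1 was highest for 8 members and knockout 3 lowest for 7, and the 2 groups overlap in every panel.

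The insulin genes, which mice carry as a pair, were compared first. Ins1 had 57.2, 67.7 and 62.6 CPM in the controls and 155, 117 and 39.5 in the knockouts. Ins2 had 266, 280 and 203 CPM in the controls and 507, 384 and 134 in the knockouts. For both genes knockouts 1 and 2 lay above all controls and knockout 3 below all of them. The log2 fold changes of 0.73 (SE 0.47) for Ins1 and 0.45 (SE 0.46) for Ins2 did not pass, with adjusted p = 0.507 and 0.692 by edgeR. Without knockout 1 they were 0.32 and 0.05, and without knockout 3 they were 1.12 and 0.83. The ratio of Ins2 to Ins1 counts was 4.65, 4.13 and 3.25 in control and 3.28, 3.28 and 3.40 in knockout. It varied more among controls than among knockouts, and the knockouts lay within the control range. The transcripts of the genes share 7 windows of 50 bases (0.691% of those of Ins1) and none of 100 bases.

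Iapp, the amyloid peptide co-secreted with insulin, had 34.9, 34.7 and 19.8 CPM in the controls and 44.2, 37.8 and 13.5 in the knockouts. Its order over the libraries resembled that of Ins2, with lower values in both libraries numbered 3. The log2 fold change was 0.10 (SE 0.47) and turned to -0.02 with the replicate block, so no direction can be given.

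Glucagon, somatostatin and pancreatic polypeptide mark the other islet cell types, and each had a pattern of its own. Gcg was nearly constant in control at 32.8, 33.3 and 33.8 CPM, and had 97.1, 25.3 and 22.6 CPM in knockout. Knockout 1 stood far above and the other knockouts below every control. The log2 fold change of 0.54 (SE 0.62, adjusted p = 0.748 by edgeR) was -0.48 without knockout 1.

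Sst, the inhibitory hormone of delta cells, had 14.2, 10.7 and 12.6 CPM in the controls and 34.3, 18.0 and 11.0 in the knockouts. Knockouts 1 and 2 exceeded every control, and knockout 3 lay within them. Its log2 fold change was 0.75 (SE 0.41, adjusted p = 0.431 by edgeR) and was 0.21 without knockout 1.

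Ppy varied most among the members, with a 51.5-fold range over the libraries where the other members spanned 2.38-fold to 4.29-fold. It had 29.0, 6.57 and 1.05 CPM in the controls and 1.98, 17.6 and 0.563 in the knockouts. Control 1 and knockout 2 were high, and the lowest value of each group was in replicate 3. The log2 fold change of -0.88 had an SE of 1.67 and was 0.79 without control 1. Pyy, the related peptide gene of islet and gut, had 5.86, 1.89 and 1.93 CPM in the controls and 1.74, 5.31 and 0.375 in the knockouts, with its high values in the same 2 libraries.

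The makeup of the hormone counts does not depend on scaling between libraries, and the insulin genes held most of it in every library. Ins1 and Ins2 together took 74.5%, 80.3% and 79.8% of the counts of the 6 hormone genes in control and 78.8%, 83.5% and 78.4% in knockout. Gcg took 7.55%, 7.70% and 10.2% in control and 11.6%, 4.22% and 10.2% in knockout, lowest in knockout 2. The share of Ppy ran from 6.68% in control 1 to 0.236% in knockout 1. All these shares overlapped between the groups.

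The granins are acidic proteins that help to form dense-core granules. Chga had 20.3, 15.2 and 15.6 CPM in the controls and 55.6, 45.3 and 16.6 in the knockouts, with knockout 3 inside the control range. Its log2 fold change of 1.20 (SE 0.44) was the largest among the members and had an unadjusted p of 0.0347 and an adjusted p of 0.26 by edgeR. Without knockout 3 it was 1.56 and was called (edgeR adjusted p = 0.0329, in a fit that called 0.175% of all genes). In the other 5 fits that left out 1 library it was not called (adjusted p 0.251 to 0.517), and it was 0.86 without knockout 1. Chgb was lower throughout, at 2.46, 2.05 and 2.80 CPM in the controls and 5.63, 4.14 and 1.42 in the knockouts. Its log2 fold change was 0.61 (SE 0.46, adjusted p = 0.562 by edgeR), with 0.19 without knockout 1 and 1.00 without knockout 3, which lay below every control.

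The convertases differed from each other in direction. Pcsk2, whose product PC2 releases glucagon from its precursor, had 4.35, 2.92 and 3.09 CPM in the controls and 12.4, 6.94 and 3.67 in the knockouts. Each knockout exceeded the control of its number, but knockout 3 stood below control 1. The log2 fold change was 1.15 (SE 0.44, adjusted p = 0.267 by edgeR), and with the replicate block it was 1.03 (SE 0.24) with adjusted p = 0.0315. Without the block it was 0.62 when knockout 1 was left out. The transcripts of Pcsk2 overlap those of the antisense genes Pcsk2os1 and Pcsk2os2 in 5.16% of their 50-base windows. Unstranded reads from the overlap cannot be assigned to either strand's gene.

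Pcsk1, whose product PC1/3 acts early in the cutting of proinsulin, was the convertase with lower values in knockout. It had 5.70, 6.78 and 4.43 CPM in the controls and 3.32, 5.05 and 2.84 in the knockouts. Each knockout lay below the control of its number, and only knockout 2 reached into the control range. The log2 fold change of -0.59 (SE 0.25) had adjusted p = 0.291 by edgeR, and -0.61 (SE 0.18) with adjusted p = 0.0718 under the block, so it was not called in either fit. In the 22 alternative fits it was negative in 22 and called in 0.

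**Figure D3:**
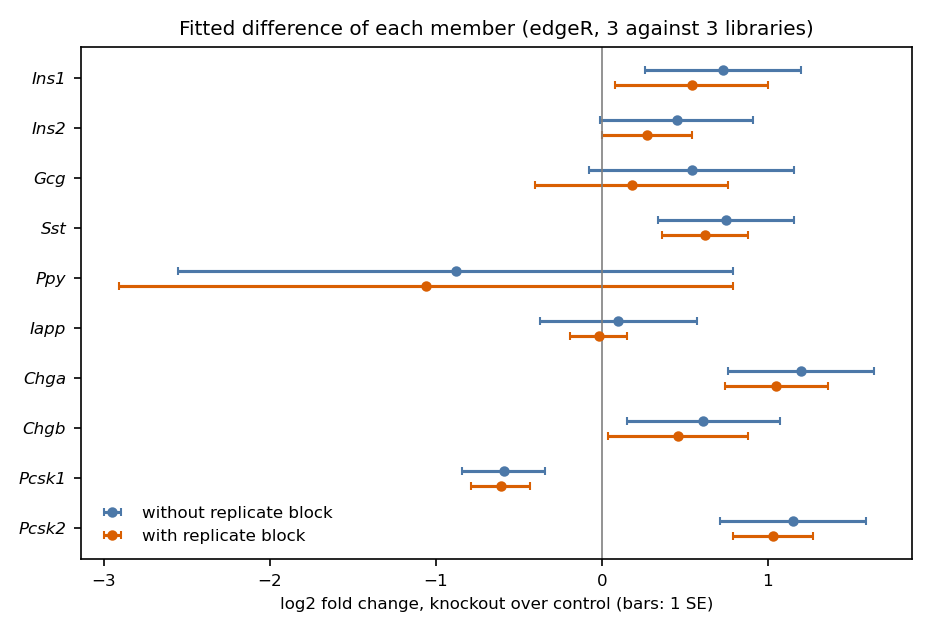
Log2 fold change of each member, knockout over control, from edgeR fits without and with the replicate number as a block; bars span 1 SE on each side, and the vertical line marks no difference. Pcsk2 (1.03 with the block, adjusted p = 0.0315) is the member called, and Ppy has the widest error.

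By replicate number, pair 3 went against the other pairs. In pair 1, 8 members were above and 2 below their control, with a median ratio of 2.35, and in pair 2 the split was again 8 and 2, with a median ratio of 1.70. In pair 3 the split was 2 above and 8 below, with a median ratio of 0.665. Chga and Pcsk2 were higher in the knockout of all 3 pairs, as were 24.2% of all tested genes, and Pcsk1 was lower in all 3, as were 20.7%. The members' counts of 2 and 1 out of 10 are no higher than these shares. Without both libraries numbered 3, a choice made after the values were seen, the blocked edgeR fit called 6 members higher, against 6.11% of all genes tested in that fit: Ins1, Ins2, Sst, Chga, Chgb and Pcsk2. Without both libraries numbered 1 or both numbered 2 it called 0, and the median of the members was 0.03 and 0.28. Pair 3 was the pair that went against the others, so the 6 calls without it cannot be weighed against that 6.11%.

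Because the amount of islet RNA differed between libraries, the members were also set against Ins2 within each library, a ratio chosen after the values were seen. Chga had 7.61, 5.45 and 7.67 counts per 100 Ins2 counts in control and 11.0, 11.8 and 12.4 in knockout. The groups did not overlap, and the ratio of geometric means was 1.71, with knockout 3 the highest rather than the lowest. Pcsk2 had 1.63, 1.04 and 1.52 per 100 Ins2 counts in control and 2.45, 1.81 and 2.74 in knockout, 1.67 times the control level and also without overlap. Pcsk1 had 2.14, 2.42 and 2.18 in control and 0.655, 1.32 and 2.12 in knockout, and the gap between control 1 and knockout 3 was narrow. For each of these 3 genes the exact two-sided permutation p was 0.1, the smallest that 3 against 3 can give. Any gene without overlap has this p, so it adds nothing to the lack of overlap. The other 6 members overlapped, from 0.384 times the control level for Ppy to 1.27 times for Sst.

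In CPM the share without overlap was 22.9% of all tested genes. Relative to Ins2 it was 3.68% of 13114 (1.49% higher and 2.19% lower), counted over genes of every cell type. Ins2 itself spanned 3.78-fold over the libraries, which spreads the ratios of genes that do not vary with it. Among the 54 tested genes of the endocrine lists below that had counts in every library, 5 were higher without overlap (Nkx2-2, Isl1, Snap25, Resp18 and Nnat) and 6 were lower (Ucn3, Scg5, Pcsk4, Pcsk6, Slc2a2 and Ttr). The pattern depended on the gene in the denominator. Other denominators were tried only for Chga, Pcsk2 and Pcsk1, which had been picked by the Ins2 ratio. Set against Sst, where 10.4% of all genes did not overlap, these 3 did not overlap. They did not against the sum of the 6 hormones either, where 3.78% of all genes did not. Ins2 made up 60.4% to 64.6% of that sum, so it largely repeats the Ins2 ratio. Set against Iapp (4.22% of all genes), Chga and Pcsk2 did not overlap. Against Ins1 (4.44%) only Chga of the 3 did not, at 35.4, 22.5 and 24.9 counts per 100 in control and 36.0, 38.8 and 42.0 in knockout. Set against Gcg (2.57%), all 3 overlapped.

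**Figure D4:**
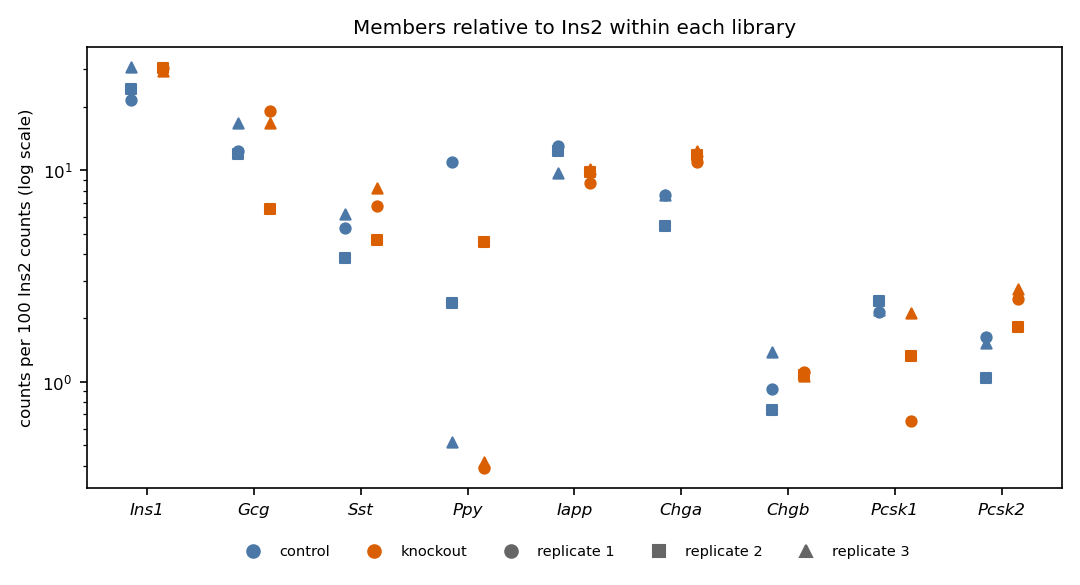
Counts of each other member per 100 Ins2 counts in each library, on a log scale, with control at the left and knockout at the right of each gene. Chga and Pcsk2 lie higher and Pcsk1 lower in all 3 knockouts, and the other 6 members overlap.

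Across the 6 libraries, most members were high and low in the same libraries. The mean of their log2 CPM, each centred on its own mean, was 0.22, -0.10 and -0.47 in control replicates 1 to 3 and 0.73, 0.55 and -0.94 in the knockouts. As a description over 6 libraries that share depth and scaling, Pearson's r with this mean, to which each member contributes, was 0.97 for Ins2, 0.95 for Iapp, 0.89 for Ins1, 0.87 for Chgb and 0.83 for Chga. Lower values were found for Sst (0.79), Pcsk2 (0.78), Ppy (0.63), Gcg (0.60) and Pcsk1 (0.28). The 8 other genes most like the mean were Tbkbp1 (0.990), Cdkn2d and Abcc8 (both 0.986), Pmvk (0.983), Rad9b (0.981), Prpf3 (0.980), Taf1a (0.975) and Celf1 (0.973). Abcc8 encodes the sulfonylurea receptor subunit of the beta cell potassium channel. It had 3.50, 2.26 and 1.93 CPM in the controls and 4.40, 4.40 and 1.42 in the knockouts.

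Genes that work with the members were described from 4 lists. Most of those called in either fit, named below, followed the members' mean loosely or not at all. Pearson's r with it was 0.27 for Nkx2-2, 0.15 for Hhex, -0.27 for Pcsk6 and -0.30 for Ptprn2. It was -0.12 for Ttr, 0.41 for Slc2a2 and 0.72 for Resp18. These genes were picked by a difference between the groups, whereas the members' mean overlapped between them. That choice itself favours a low r. The cells in which these genes differed were not tested. Islet transcription factors had 12 of 20 genes tested and a median log2 fold change of 0.82, with 1 called higher. This was Nkx2-2, a homeodomain factor of endocrine cells, at 1.07, 1.23 and 0.981 CPM in the controls and 3.22, 2.88 and 2.82 in the knockouts. Its groups did not overlap, and its log2 fold change was 1.44 (SE 0.26, adjusted p = 0.0464 by edgeR). It was called in 12 of 22 alternative fits, and among those that left out 1 library it was called without control 1 (adjusted p = 0.0439) and not in the other 5 (0.115 to 0.212). Without control 1, sex and genotype cannot be told apart. Nkx2-2 was not called with sex as a covariate, as given above. Nkx2-2 overlaps the antisense gene Nkx2-2os in part, and unstranded reads from the overlap cannot be assigned to either gene. Knockout 3, lowest for most hormones, was at the level of the other knockouts for Nkx2-2.

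Hhex, a factor of delta cells that duct cells also express, had 5.29, 2.14 and 2.65 CPM in the controls and 7.08, 5.45 and 8.05 in the knockouts. Its log2 fold change of 1.02 was not called (adjusted p = 0.204 by edgeR) and was called with the block (adjusted p = 0.0222). With sex as a covariate it was 0.37 (SE 0.28, adjusted p = 0.686 by edgeR). The ratio of knockout to control was 1.34 in pair 1, and 2.55 and 3.03 in pairs 2 and 3, whose controls had Xist. Foxa2, a factor of foregut endoderm and the most abundant of the list, had a log2 fold change of -0.27 (adjusted p = 0.535 by edgeR). Pax4 was at 0 in every library.

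Of 27 prohormone processing and granule genes, 25 were tested, with a median log2 fold change of 0.27, and 1 was called. Pcsk6, a convertase of the constitutive secretory route, fell from 5.98, 7.52 and 8.22 CPM in the controls to 1.74, 3.63 and 2.49 in the knockouts. The groups did not overlap, and the log2 fold change was -1.47 (SE 0.27, adjusted p = 0.0492 by edgeR). It was called in 15 of 22 alternative fits, and among those that left out 1 library it was called without control 1 or knockout 2 (adjusted p = 0.0255 and 0.0347) and not in the other 4 (0.136 to 0.209). With the block, Resp18, a granule protein, was called higher (1.42, adjusted p = 0.038). Ptprn2, which encodes the granule membrane protein phogrin, was called lower in the same fit (-0.77, adjusted p = 0.0287), at 39.5, 31.7 and 54.9 CPM in the controls and 21.9, 26.5 and 24.3 in the knockouts. Without the block neither passed, with adjusted p = 0.238 and 0.111 by edgeR. Furin, the ubiquitous convertase, had a log2 fold change of 0.24 (adjusted p = 0.427 by edgeR).

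Among 20 genes of glucose sensing and islet receptors, 15 were tested, with a median log2 fold change of -0.08, and 1 was called. Ttr, the thyroxine carrier that alpha cells express, had 35.0, 32.0 and 26.1 CPM in the controls and 14.4, 14.8 and 14.8 in the knockouts. It fell by 1.08 on the log2 scale (SE 0.14, adjusted p = 0.0148 by edgeR). It was called in 15 of 22 alternative fits, and among those that left out 1 library it was called without control 1 or control 3 (adjusted p = 0.0119 and 0.0149) and not in the other 4 (0.0529 to 0.0974). Its 3 knockout values were nearly equal, whereas Gcg, the defining alpha cell hormone, ranged over them from 22.6 to 97.1 CPM. Slc2a2, the glucose transporter GLUT2, had 5.67, 2.26 and 2.62 CPM in the controls and 2.73, 1.48 and 1.05 in the knockouts. It was called lower with the block (-0.99, adjusted p = 0.0417) and not without it (adjusted p = 0.332 by edgeR). Insr, the insulin receptor, had a log2 fold change of -0.08 (adjusted p = 0.884 by edgeR), and Sstr5 was at 0 in every library.

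The 12 other regulatory peptides included 3 tested genes, and none of these 3 was called, with 0 at an unadjusted p under 0.05 by edgeR and 0 with the block. Gal, the neuropeptide galanin, had 17.5, 71.1 and 128 CPM in the controls and 70.9, 48.4 and 81.8 in the knockouts, and did not follow the members. Cck, Gast, Gip and Adcyap1 were at 0 in every library.

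**Figure D5:**
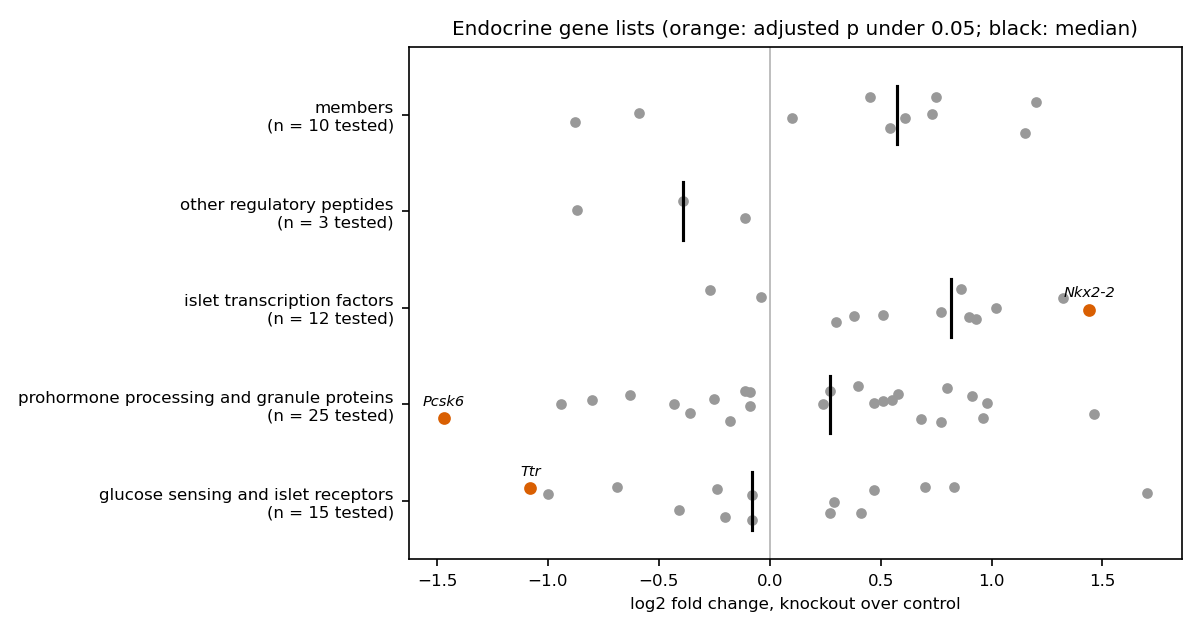
Log2 fold change, knockout over control, of every tested gene in the 10 members and the 4 lists, with the median as a black bar and genes at an edgeR adjusted p under 0.05 in orange. No member is called, and the called genes are Nkx2-2, higher, and Pcsk6 and Ttr, lower.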

How the data were processed

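Reads were aligned with STAR 2.7.10a to GRCm39 (mm39), per the submitters' processing notes, and the annotation release is not given in the sources used here. The authors deposited whole-number counts per gene, unstranded and for each strand. Unstranded counts were used, since the forward strand held 50.1% to 50.3% of stranded gene counts. Rows outside genes were left out (unmapped 9.70% to 13.0%, multimapping 21.6% to 28.4%, no feature 0.893% to 2.18%, ambiguous 3.29% to 3.63% of all counts). Symbols were found for 52081 identifiers (94.0%), and exon lengths came from GENCODE M21 on GRCm38.

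Genes passing filterByExpr were tested with edgeR 4.0.16 in R 4.3.3 (TMM, factors 0.785 to 1.19, robust quasi-likelihood F test), with Benjamini-Hochberg adjustment over 13115 genes and calls at an adjusted p under 0.05. limma 3.58.1 and DESeq2 1.42.0 served as alternatives. The SE is the log2 fold change divided by the square root of F. The fit was tested on simulated data. The closest pair of libraries had a chi-square of 26.3 per degree of freedom, so none was a copy. The labels do not say what a replicate number stands for. Same-numbered libraries deviated together (correlations 0.63, 0.455 and 0.285), so the numbers were taken to pair them. Control 3 with knockout 2 was close behind at 0.21, and the other unlike-numbered combinations were negative (-0.496 to -0.13). This pairing was inferred from the same counts, and every call with the replicate block rests on it. Controls 2 and 3 had Xist and the knockouts of the same number did not. P-values measure the spread between these preparations.

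Members and lists were chosen with earlier results of these data known. Named were Trip12, the members, the list genes called in either fit or 2 highest in CPM per list, and the 8 genes most like the members. Other genes were named after their values were seen.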

Additional observations from a re-analysis of the deposited data

How the results depend on the processing

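Over 22 alternative fits of each of the 10 members, 194 of 220 values kept their direction and side of the threshold, 13 passed it and 13 changed sign. From 0 members called, the replicate block gave 1, no filter 1 (Pcsk2), DESeq2 1 (Chga), and leaving out 1 library 0 to 1. Genes called in the endocrine lists, 3 in all, became 7 with the replicate block, 5 with library totals, 1 with digestive enzyme genes left out of library sizes, 9 with no filter, 1 with a sex covariate, and 0 to 5 without 1 library. Over all tested genes, 124 were called (61 higher, 63 lower). The replicate block gave 785 (446 and 339), library totals 1519 (1442 and 77), enzyme genes left out 201 (149 and 52), no filter 850 (477 and 373), at least 10 counts in every library 210 (110 and 100), DESeq2 594 (259 and 335), a sex covariate 21 (7 and 14), and leaving out 1 library 20 to 461. The 461 were called without control 1, where sex and genotype cannot be told apart. Library totals moved the median of all genes from 0.02 to 0.43 and that of the members from 0.57 to 1.00. 4 further fits were chosen after seeing the data. With the replicate block and without both libraries numbered 1, 396 genes were called in all. Without those numbered 2, 1 endocrine list gene was called. Without those numbered 3, 832 genes, 6 members and 8 list genes were called. The block with library totals gave 3259, 3 and 14.

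Signs turned as follows, with the cause not tested. Iapp was -0.02 with the replicate block, -0.03 by limma-voom, -0.13 with a sex covariate, -0.21 to 0.46 without 1 library, and -0.22 and -0.09 with the block without pair 1 and pair 2. Gcg ran from -0.48 to 0.87 and Ppy from -3.26 to 0.79 without 1 library. With the block without pair 1, Gcg was -0.51, Ppy 0.68 and Ins2 -0.09. Gal was 0.21 with the block, 0.40 with library totals, 0.16 with enzyme genes left out, 0.26 by limma-voom, 1.93 with sex, 0.67 and 0.71 with the block without pair 2 and pair 3, 0.65 with the block and library totals, and -0.59 to 0.59 without 1 library. Foxa2 was 0.17 with library totals, 0.09 with sex and 0.16 with the block and library totals. Insr was 0.33 with library totals, 0.12 with enzyme genes left out, 0.35 with the block and library totals, 0.00 with the block without pair 1, and -0.21 to 0.06 without 1 library. Pyy ran from -1.61 to 0.34 without 1 library. Depth limited the members little, since 3 counts equal at most 0.123 CPM.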
